A study of Mus musculus with 4 samples.

Results

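The analysis covers 10 genes of the ATF6 and XBP1 arms of the unfolded protein response, taken by symbol from the 19840 genes of the deposited comparison. They are the endoplasmic reticulum (ER) chaperones Hspa5 and Hsp90b1, the cochaperones Dnajb9, Dnajc3 and Sdf2l1, the disulfide isomerase Pdia4, the secretory factors Manf and Creld2, the transcription factor Xbp1 and the degradation factor Herpud1. All 10 passed the authors' filter on low means and had an adjusted p-value. RNA came from naive mouse embryonic stem cells grown in 2i/LIF, in which inhibitors of MEK and GSK3 together with leukaemia inhibitory factor keep the cells naive. A lentivirus brought in either the hairpin shLincenc1, aimed at the noncoding transcript Lncenc1, or the control hairpin shCtrl, and puromycin selected both arms for 2 days. Each arm had 2 libraries. The protocols name the lines E14TG2a and R1 and 2 hairpins per target, and the labels tie neither a line nor a hairpin to a library.

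The deposited table does not say which arm was the numerator of its fold change. The groups are therefore named by their level of Lncenc1. Provided that shLincenc1 reduced Lncenc1, the Lncenc1-low libraries are the shLincenc1 arm, and the table then cannot check the knockdown itself. The reads of each library were worked back from the deposited means, and all values per library below are reads divided by the size factor of the library (normalized reads). Lncenc1 had 2126 and 2121 normalized reads in the Lncenc1-low libraries L1 and L2, against 6400 and 7250 in the Lncenc1-high libraries H1 and H2. Recovered reads summed to 10985330 in L1, 10429338 in L2, 26094526 in H1 and 10822925 in H2, so H1 is the deepest library. Of 11 markers of naive stem cells 0 were at 0 in any library, and their summed level was 60293 to 65561 normalized reads in the Lncenc1-low libraries and 71362 to 75914 in the Lncenc1-high libraries. Markers of primitive endoderm, a secretory lineage rich in ER, summed to 4308 to 4523 normalized reads in the Lncenc1-low libraries and 5224 to 6118 in the Lncenc1-high libraries, with 0 of 8 tested markers called. Foxa2 and Sox7 were at 0 in L2 and H2 and Gata6 in H2, and most of the sum came from Sparc and Lama1. Of the 8 tested endoderm markers 6 had a negative and 2 a positive log2 fold change (Lncenc1-high over Lncenc1-low), with a median of -0.45, so most were higher in Lncenc1-low, against the direction of the sum. Both Lncenc1-low libraries lay above both Lncenc1-high libraries in 4 of the 8, against 20.7% of all genes tested. The reverse held in 2 of the 8, against 20.6% of all genes tested, and Lama1 was among these 2. Markers of fibroblasts, the usual feeder cells, summed to 222 to 375 normalized reads in the Lncenc1-low libraries and 137 to 161 in the Lncenc1-high libraries. Of 3 tested markers 0 were called, and Col3a1 was at 0 in L2 and H2. Most of this sum came from Fbn1, with 324 and 174 normalized reads in L1 and L2, against 140 and 110 in H1 and H2. All 3 tested markers had a negative log2 fold change, with a median of -0.99. Of the 3, 1 had an unadjusted p under 0.05 in the authors' deposited table, against 8.82% of all genes tested. In 2 of the 3 both Lncenc1-low libraries lay above both Lncenc1-high libraries, against 20.7% of all genes tested. The part of these markers in the results was not tested.

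Proteins that enter the ER are folded by chaperones, and an excess of unfolded protein frees the sensors ATF6, IRE1 and PERK from the chaperone BiP. ATF6 is cut to a transcription factor, IRE1 splices the Xbp1 transcript so that it codes for an active factor, and both factors raise ER chaperones and degradation factors. PERK slows translation and raises ATF4, which is also reached from amino acid shortage without the ER. The ATF6 and XBP1 arms act on their targets mostly through the ER stress response element (ERSE), in which a CCAAT box bound by NF-Y stands at a fixed distance from a CCACG box bound by ATF6 or XBP1.

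Sites of these factors are printed here because they are the route by which the response is known to reach such genes. Herpud1 holds another form of the site. It also had the largest difference among the 10 genes, and whether sites and fold changes are linked was not tested. Promoter windows from 250 bases before to 50 bases after the annotated start were available in RefSeq (GRCm38.p6) for 9 of the 10 genes, all but Manf. The ERSE was searched on both strands as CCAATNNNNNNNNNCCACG and was found in 4 of the 9 windows, those of Hspa5, Hsp90b1, Dnajc3 and Creld2, and in 0.119% of all 32851 windows. The shorter form ERSE-II, searched on both strands as ATTGG and CCACG with 1 base between them, was found in Herpud1 alone among the 9 and in 0.0365% of all windows. Its CCAAT box also stands before the CCACG box, but on the other strand, so that it reads ATTGG, and closer to it. The sites follow, each 5′ to 3′ on the strand of the motif, with the fixed letters in capitals.
Hspa5 ERSE: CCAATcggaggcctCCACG
Hsp90b1 distal ERSE: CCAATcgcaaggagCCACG
Hsp90b1 proximal ERSE: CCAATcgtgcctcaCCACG
Dnajc3 ERSE: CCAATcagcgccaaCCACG
Creld2 ERSE: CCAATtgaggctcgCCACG
Herpud1 ERSE-II: ATTGGgCCACG

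These sites lay upstream of the start, the Hspa5 site from base -65 to -47 and the Herpud1 site from base -52 to -42, counted from 0 at the start. The window of Hspa5, on the plus strand of GRCm38.p6 at chr2:34771840-34772139, is given to show its ERSE in capitals next to further CCAAT boxes.
Hspa5: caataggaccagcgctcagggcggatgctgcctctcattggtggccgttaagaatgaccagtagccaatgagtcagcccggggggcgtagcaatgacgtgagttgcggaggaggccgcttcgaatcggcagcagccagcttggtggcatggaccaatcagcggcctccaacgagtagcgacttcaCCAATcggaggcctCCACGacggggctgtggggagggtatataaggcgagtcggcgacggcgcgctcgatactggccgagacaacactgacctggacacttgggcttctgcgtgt

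The window of Herpud1, on the plus strand of GRCm38.p6 at chr8:94386179-94386478, is given because it holds letters of both arms. Its capitals mark the ERSE-II and, upstream of it from base -112 to -105, a match to the core of the C/EBP-ATF response element through which ATF4 acts, TGATGNAA, which lies on the minus strand and so stands reverse complemented in the line below.
Herpud1: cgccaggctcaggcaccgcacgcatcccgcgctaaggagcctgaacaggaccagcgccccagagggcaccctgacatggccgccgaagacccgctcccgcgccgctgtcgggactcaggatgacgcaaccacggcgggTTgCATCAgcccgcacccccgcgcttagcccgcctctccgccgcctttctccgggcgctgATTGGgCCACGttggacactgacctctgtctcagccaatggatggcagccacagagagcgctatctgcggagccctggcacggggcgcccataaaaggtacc

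The core TGATGNAA, searched on both strands after the Herpud1 window had been read, was found in 1 of the 9 windows and in 3.97% of all windows, so a match by itself is common. The element of XBP1 known as UPRE, searched as TGACGTGG on both strands, was found in 0 of the 9 windows and in 0.676% of all. The letters CCACG alone were in 8 of the 9 windows and in 32.8% of all, and CCAAT alone in 8 of 9 and in 37.4% of all, overlapping the longer motifs. A missing match says only that the letters are not in that window, as in the windows of Xbp1, Dnajb9, Pdia4 and Sdf2l1 for the ERSE.

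**Figure D1:**
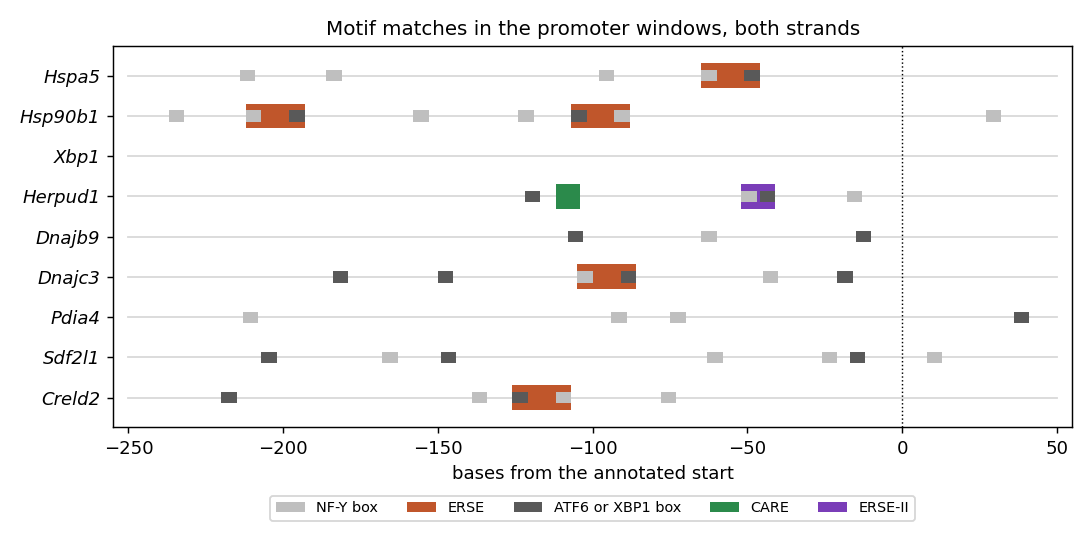
Position of motif matches (boxes, both strands) in the RefSeq windows of 9 genes, in bases from the annotated start on the horizontal axis, one gene per line, with the letters CCAAT drawn as the NF-Y box and CCACG as the ATF6 or XBP1 box. ERSE matches lie in Hspa5, Hsp90b1, Dnajc3 and Creld2, while Herpud1 holds an ERSE-II from base -52 to -42 and a C/EBP-ATF core (CARE) from base -112 to -105.

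None of the 10 genes passed the test between the groups. The authors' deposited table has 0 of 10 past a DESeq2 adjusted p of 0.05, against 1.53% of 14070 genes tested, made up of 1.02% higher in Lncenc1-low and 0.505% higher in Lncenc1-high. Limma voom on the recovered counts also called 0 of 10, against 0.0427% of 14038 genes. At an unadjusted p under 0.05 the authors' deposited table has 1 of 10, Herpud1, against 8.82% of all genes tested. None of the 10 was higher in Lncenc1-low at that p, against 5.28% of all genes, and 1 was higher in Lncenc1-high, against 3.54%. Voom also had 1 of 10 at an unadjusted p under 0.05, against 10.2% of all genes. The libraries of the groups did not overlap in 4 of the 10 genes, 40% against 41.3% of all genes. The log2 fold change, which runs as Lncenc1-high over Lncenc1-low throughout, so that a positive value means lower in Lncenc1-low, was negative for 5 genes and positive for 5, with a median of -0.01 over the 10 and -0.01 over all genes tested. The summed level of the 10 was 24618 and 22061 normalized reads in L1 and L2, against 24571 and 22984 in H1 and H2, so the libraries of a group lay further apart than the groups did. Hsp90b1 alone made 41.8% to 45.6% of this sum in each library, so genes of low level such as Herpud1 hardly move it.

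Hspa5 codes for BiP, the ER chaperone of the HSP70 family that holds the sensors inactive. It had 5299 and 5338 normalized reads in L1 and L2, against 5429 and 4770 in H1 and H2. The 2 Lncenc1-low libraries lay between the 2 Lncenc1-high libraries. Hspa5 stands in the authors' deposited table at a log2 fold change of -0.06 ± 0.18 (SE), with a 95% interval of -0.42 to 0.30, and a DESeq2 adjusted p of 0.999. The bounds of this interval are Lncenc1-high over Lncenc1-low ratios of 0.747 and 1.23.

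Hsp90b1 codes for GRP94, the ER member of the HSP90 family, and was the most abundant of the 10. It had 10434 and 9217 normalized reads in L1 and L2, against 10691 and 10483 in H1 and H2. Both Lncenc1-low libraries lay below both Lncenc1-high libraries, by a small margin for L1. Such separation, with the Lncenc1-high libraries above, held for Hsp90b1 and Herpud1 among the 10 genes and for 20.6% of all genes tested with recovered counts. The authors' deposited table puts the log2 fold change at 0.11 ± 0.18 (SE), with a 95% interval of -0.24 to 0.46 and a DESeq2 adjusted p of 0.995.

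The cochaperones Dnajb9 and Dnajc3, J-domain proteins that work with BiP in the ER, did not pass. Dnajb9 (ERdj4) had 159.0 and 117.4 normalized reads in L1 and L2, against 194.6 and 112.9 in H1 and H2. The Lncenc1-high libraries enclosed both Lncenc1-low libraries, and with 90 to 379 reads per library it was the least precisely measured gene of the set, where the authors' deposited table has a log2 fold change of 0.16 ± 0.43 (SE). Dnajc3 (P58IPK) had 518.8 and 489.4 normalized reads in L1 and L2, against 499.5 and 415.2 in H1 and H2, with overlapping groups. For Dnajc3 the authors' deposited table has -0.14 ± 0.26 (SE) on the log2 scale, with a 95% interval of -0.65 to 0.38.

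Sdf2l1, which joins ER J-domain proteins in keeping BiP clients soluble, had 266.2 and 245.9 normalized reads in L1 and L2, against 235.1 and 229.6 in H1 and H2. Both Lncenc1-low libraries lay above both Lncenc1-high libraries, which among the 10 genes held for Sdf2l1 and Creld2 and for 20.7% of all genes tested with recovered counts. The difference was small beside its error: the authors' deposited table lists -0.14 ± 0.32 (SE) on the log2 scale, with a DESeq2 adjusted p of 0.999. Pdia4 (ERp72), a disulfide isomerase with several thioredoxin domains, had 4731 and 3426 normalized reads in L1 and L2, against 3766 and 3866 in H1 and H2. Here the Lncenc1-low libraries enclosed the Lncenc1-high libraries, and the authors' deposited table lists -0.10 ± 0.21 (SE) on the log2 scale.

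Manf and Creld2 code for small ER proteins that are retained by KDEL-like ends and can be secreted under stress. Manf had 1778 and 1607 normalized reads in L1 and L2, against 1868 and 1587 in H1 and H2, and the Lncenc1-high libraries enclosed the others. At 0.03 ± 0.21 (SE) its log2 value in the authors' deposited table was the smallest in size of the 10. On the current annotation exons of Manf overlap those of Rbm15b on the same strand and of Dcaf1 on the other strand. How reads of the shared stretches were assigned is uncertain, and so is the level of Manf, also when set per length. Creld2 had 623.6 and 635.2 normalized reads in L1 and L2, against 567.3 and 526.9 in H1 and H2. The groups did not overlap and the authors' deposited table has -0.20 ± 0.24 (SE) on the log2 scale, with a DESeq2 adjusted p of 0.981.

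Xbp1 had 576.7 and 839.1 normalized reads in L1 and L2, against 925.1 and 643.6 in H1 and H2. Each group held 1 high and 1 low library, and the authors' deposited table has 0.15 ± 0.28 (SE) on the log2 scale. The counts are per gene and do not separate spliced from unspliced Xbp1 transcripts, so they give its amount and not its activation.

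Herpud1 was lower in the Lncenc1-low libraries by a margin that passed the unadjusted but not the adjusted test. It codes for a ubiquitin-like membrane protein of the ER that helps to organise the HRD1 ligase complex for degradation of unfolded proteins, and it is known as a target of ATF4 as well as of ATF6 and XBP1. It had 231.7 and 147.1 normalized reads in L1 and L2, against 395.3 and 350.0 in H1 and H2. Both Lncenc1-low libraries lay below both Lncenc1-high libraries, with means of 189.4 ± 59.8 (SD, n = 2) and 372.6 ± 32.0 (SD, n = 2). The reads behind these values were 188 and 119 in L1 and L2 and 770 and 279 in H1 and H2. Herpud1 (ENSMUSG00000031770.14) is listed in the authors' deposited table at a log2 fold change of 0.98 ± 0.34 (SE), a ratio of 1.97 for Lncenc1-high over Lncenc1-low, with a 95% interval of 0.32 to 1.63, an unadjusted p of 0.00351 and a DESeq2 adjusted p of 0.14, which does not pass. Limma voom gave 1.03 with an adjusted p of 0.304. Without L2, the library with the lowest value, the log2 fold change of Herpud1 was 0.69 with an unadjusted p of 0.0936, and without L1 it was 1.34 with an adjusted p of 0.0761 in the negative binomial refit.

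**Figure D2:**
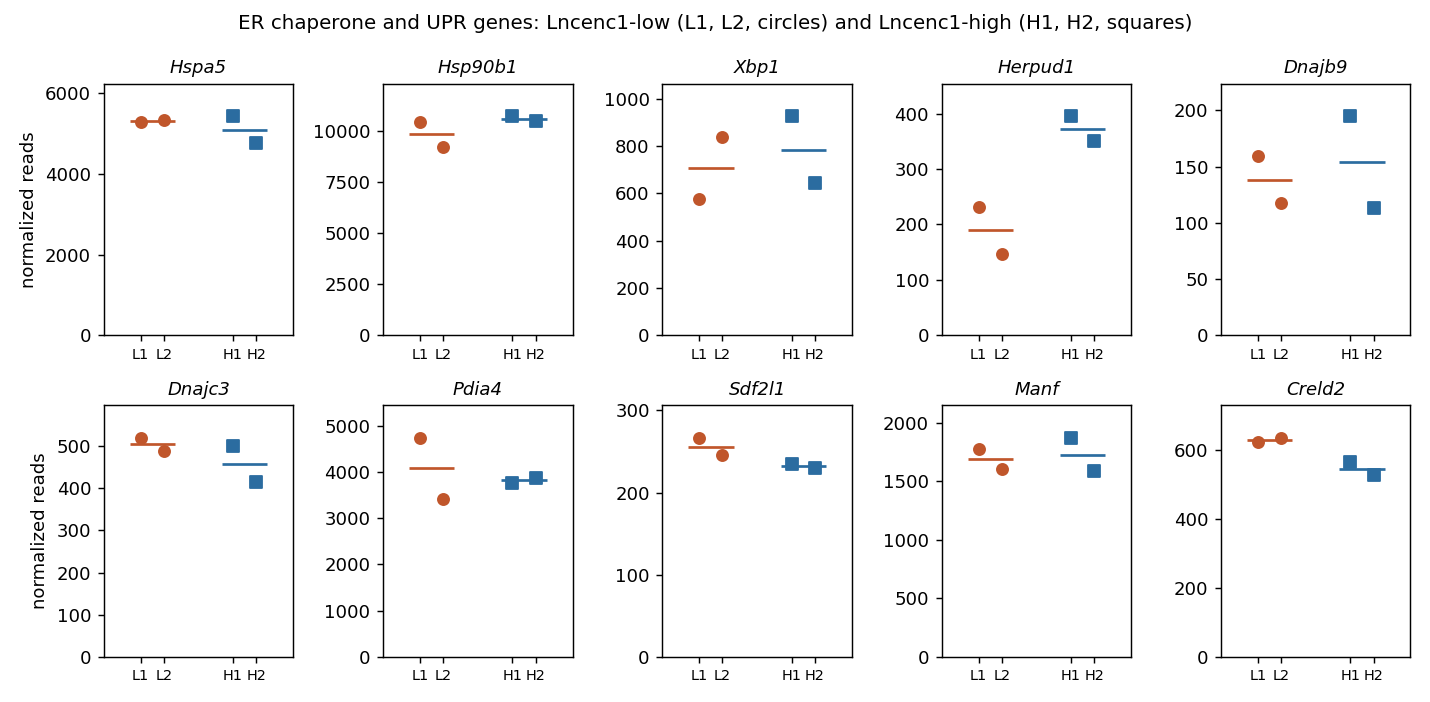
Normalized reads (vertical axes, from 0, one scale per gene) of the 10 genes in the Lncenc1-low libraries L1 and L2 (circles) and the Lncenc1-high libraries H1 and H2 (squares), with the group means as lines. Herpud1 has 147.1 and 231.7 normalized reads in the Lncenc1-low libraries and 350.0 and 395.3 in the Lncenc1-high libraries, while the libraries of both groups overlap in Hspa5, Xbp1, Dnajb9, Dnajc3, Pdia4 and Manf.

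The error of each gene sets what could have been seen. The smallest Wald statistic among called genes of the authors' deposited table had a size of 3.37, so a call would have needed a log2 fold change of 0.62 for Hspa5, 0.60 for Hsp90b1, 1.13 for Herpud1 and 1.45 for Dnajb9 at their errors. Outside Herpud1 the 95% intervals of the log2 fold change lay between -0.76, for Sdf2l1, and 1.01, for Dnajb9. A smaller estimate could not have been called at these errors, and the p-values above do not show that levels were equal. In these bulk libraries a change in the share of cells and a change in RNA per cell cannot be told apart.

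**Figure D3:**
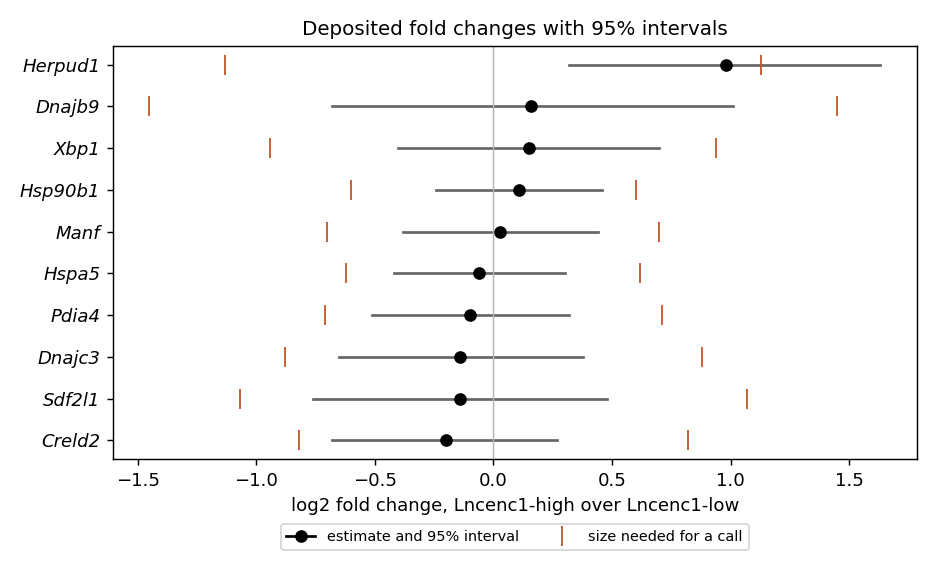
Deposited log2 fold change, Lncenc1-high over Lncenc1-low (horizontal axis), of the 10 genes with its 95% interval (line) and the size that a call would have needed at that error (ticks). The interval of Herpud1, 0.32 to 1.63, is the 1 that leaves out 0, and no estimate reaches its tick.

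Set per length, the 10 genes spanned a wide range of abundance. The mean over all 4 libraries was 2531 normalized reads per kilobase of annotated exon for Hsp90b1, 1645 for Pdia4 and 1232 for Hspa5, which placed these genes above 96.3% or more of all genes tested. Manf with 485 and Creld2 with 431 normalized reads per kilobase followed, then Xbp1 with 230, Sdf2l1 with 220, Herpud1 with 120, Dnajc3 with 93.5 and Dnajb9 with 57.3. Over the 4 libraries the neighbours Manf and Creld2, Xbp1 and Sdf2l1, and Herpud1 and Dnajc3 overlapped in this level, and the other neighbouring pairs did not. Dnajb9 stood at percentile 45.1 of all genes tested.

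Libraries of a group differed in a shared direction for most of the set. In 9 of the 10 genes, all but Pdia4, H1 lay above H2, against 50.4% of all genes tested, and in 7 of 10 L1 lay above L2, against 49.7%. This split was not particular to the set. Of the lists given below, H1 lay above H2 in 81% of the cytosolic heat shock genes and 76.9% of the UPR sensors and transcription factors. L1 lay above L2 in 76.2% and 61.5% of these lists. In the folding, degradation, translocation and ATF4 lists the shares were 46.2% to 60.7% for H1 and 50% to 69.2% for L1. On a centred log2 scale the mean of the 10 was 0.04 in L1 and -0.11 in L2, against 0.15 in H1 and -0.08 in H2. The part of depth, which also differs between H1 and H2, in this split was not tested. Over these 4 libraries the genes nearest to that mean profile, among 5562 genes with a mean of at least 500, were Aurka, Chordc1 and Mrps24, at root mean square distances of 0.0024 to 0.0103 log2 units. The median distance of all such genes was 0.18, and Herpud1 itself stood at 0.50, the farthest of the 10. Xbp1 at 0.27 and Dnajb9 at 0.22 also lay beyond that median, and the other genes of the set stood at 0.03 to 0.17. The mean profile is therefore not shared by all 10.

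The other lists of ER genes held no called gene either. Of 13 tested UPR sensors and transcription factors 0 were called, and the authors' deposited table has the sensors Ern1 (IRE1) at 0.05 ± 0.34 (SE), Eif2ak3 (PERK) at -0.10 ± 0.25 (SE) and Atf6 at -0.16 ± 0.25 (SE) on the log2 scale. The smallest p of that list was that of Creb3, a membrane-bound factor related to ATF6, at -0.56 ± 0.35 (SE) in the authors' deposited table. Together 4 lists of further ER genes, for sensors, folding, degradation and translocation, held 112 tested genes, of which 0 were called by DESeq2 in the authors' deposited table and 0 by voom. At an unadjusted p under 0.05 in the authors' deposited table stood 11 of the 112 (9.82%, against 8.82% of all genes), 4 higher in Lncenc1-low and 7 higher in Lncenc1-high, and the median log2 fold change was 0.00.

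By list, 0 of 13 sensors and transcription factors and 7 of 39 genes of folding and redox chemistry (17.9%) stood at an unadjusted p under 0.05 in the authors' deposited table. So did 2 of 28 degradation factors (7.14%), both higher in Lncenc1-low. Of 32 genes of translocation and glycosylation 2 did (6.25%), 1 in each direction. Of the 39 folding and redox genes 1 was at that p and higher in Lncenc1-low, against 5.28% of all genes tested. Another 6 of the 39 were at that p and higher in Lncenc1-high, against 3.54% of all genes tested. Both Lncenc1-high libraries lay above both Lncenc1-low libraries in 35.9% of the folding and redox list, against 20.6% of all genes. They lay below both in 15.4% of that list, against 20.7% of all genes. The shares above and below were 7.14% and 25% for the degradation list and 28.1% and 18.8% for the translocation list. For the sensors and transcription factors they were 7.69% and 15.4%. Among the 39 folding and redox genes Cnpy2 had the smallest p. The authors' deposited table has it at 0.68 ± 0.25 (SE) on the log2 scale with a DESeq2 adjusted p of 0.191. Hyou1 (GRP170), the nucleotide exchange factor of BiP, had 2686 and 1730 normalized reads in L1 and L2, against 2643 and 2273 in H1 and H2. Of 28 degradation factors the lowest p belonged to Selenos, a selenoprotein of the same membrane complex as Herpud1. Selenos was higher in both Lncenc1-low libraries, with 541.0 and 530.2 normalized reads in L1 and L2, against 315.7 and 327.4 in H1 and H2. The authors' deposited table has Selenos at -0.74 ± 0.26 (SE) on the log2 scale with a DESeq2 adjusted p of 0.177, which does not pass. Of 32 genes of translocation and glycosylation Rpn2, a subunit of the oligosaccharyltransferase, had the smallest p, at 0.45 ± 0.20 (SE) in the authors' deposited table.

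Genes can also be taken by sequence. An ERSE or ERSE-II stood in the windows of 49 genes, of which 29 were tested, 5 of them members of the set. Of these 29 genes 0 were called by DESeq2 in the authors' deposited table, against 1.53% of all genes tested. At an unadjusted p under 0.05 in the authors' deposited table stood 3 of the 29, against 8.82% of all genes, near the background for both directions together. They were Herpud1, Hnrnpa3 and the lectin chaperone Canx. All 3 were higher in Lncenc1-high, against 3.54% of all genes, and 0 were higher in Lncenc1-low, against 5.28%. The median log2 fold change of the 29 was 0.11.

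Beside these, the list of the ATF4 branch held called genes. It was chosen, like all lists, with earlier results of these data known. Its share of calls is therefore no independent contrast with that of all genes. Of 20 tested, 6 passed in the authors' deposited table (30%, against 1.53% of all genes tested). Among them Ddit4 was higher in Lncenc1-low and Chac1, Nupr1, Mthfd2, Shmt2 and Psat1 were higher in Lncenc1-high, and the median log2 fold change of the 20 was 0.53. Chac1, a glutathione-degrading enzyme, had 29.58 and 22.25 normalized reads in L1 and L2, against 156.1 and 189.4 in H1 and H2, and the authors' deposited table has it at 2.73 ± 0.50 (SE) on the log2 scale. Atf4 itself had 2630 and 3441 normalized reads in L1 and L2, against 3484 and 4777 in H1 and H2, and did not pass. Trib3, the pseudokinase that ATF4 and CHOP raise, had 195.9 and 236.0 normalized reads in L1 and L2, against 498.0 and 355.0 in H1 and H2, and did not pass. Ddit3, the gene of CHOP, had 69.01 and 143.4 normalized reads in L1 and L2, against 81.11 and 74.02 in H1 and H2. Whether the ATF4 list and the 10 ER genes differ in their response was not tested, and the ATF4 list kept 2 calls without L2 (Chac1 and Mthfd2) and 3 without H1 (these and Nupr1), while voom made 0.

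The chaperones of the cytosol and mitochondria, set beside those of the ER, held 3 called genes of 23 tested (13%, against 1.53% of all genes), all higher in Lncenc1-low, where 1.02% of all genes were called. They were the small heat shock proteins Hspb8 and Hspb1 and the HSP110 relative Hspa4l. Hspb8 had 1985 and 1923 normalized reads in L1 and L2, against 1143 and 1024 in H1 and H2, and the authors' deposited table has it at -0.85 ± 0.20 (SE) on the log2 scale with a DESeq2 adjusted p of 0.00532. Hspb1 had 6298 and 5874 normalized reads in L1 and L2, against 4092 and 3387 in H1 and H2, and the authors' deposited table has it at -0.70 ± 0.19 (SE) on the log2 scale. Hspa4l was at -1.62 ± 0.47 (SE) in the authors' deposited table. The heat shock list was also chosen with earlier results of these data known. Its share of calls is thus no independent contrast with that of all genes. Voom called 0 of the 3, and 0 of them passed in any of the 4 refits without 1 library.

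**Figure D4:**
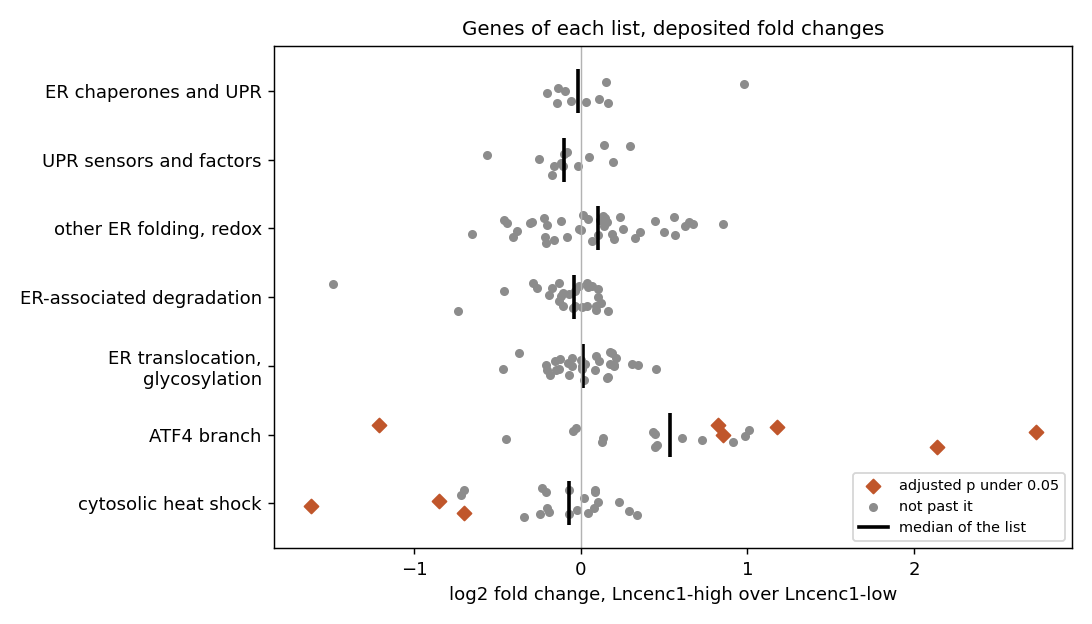
Deposited log2 fold change, Lncenc1-high over Lncenc1-low (horizontal axis), of the tested genes of each list (points, one line per list), with called genes as diamonds and the median of each list as a bar. The 10 ER chaperone and UPR genes and the 4 further ER lists hold 0 diamonds, the ATF4 branch holds 6 and the cytosolic heat shock genes hold 3.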

How the data were processed

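RNA of 4 libraries, depleted of ribosomal RNA, was sequenced with a stranded kit, per the labels' protocols. TopHat2, HTSeq, DESeq2 1.8.2 and the build mm9 are named by the submitters' processing notes, and the strand setting of the counting was not found in the sources. Each row of the deposited table is 1 gene, with no values of single libraries. Its columns, per the file headers, hold the mean normalized count (a signal), the log2 fold change with its standard error, the Wald statistic (a score, fold change over error), and the p-value and adjusted p-value, as the authors computed them. A call is an adjusted p under 0.05 of the authors. edgeR was not run, because the authors' table is a finished comparison.

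Whole counts were worked back from the deposited means. A mean is the sum of 4 whole counts times 4 fixed steps that recur among low genes. Of several solutions, the one that returned the deposited log2 fold change to 0.00001 was kept when it was at least 10 times closer than any other. Counts were had for 19813 of 19840 genes, and the other 27 are abundant genes with 13.9% of the summed means. The fold changes of the 10 genes came back to 7.11e-07. The recovery and the tests were checked on simulated data. L1 and L2 differed by more than 2 SD of counting error in 63.9% of 9719 genes and H1 and H2 in 49.4%, so no library is a copy. No molecular identifiers are named, so this covers counting error of reads, not of molecules.

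From the counts came the values per library, limma 3.58.1 voom, and a negative binomial Wald refit of 14038 genes at the dispersion each deposited error implies. The refit served the fits without 1 library, where a lone library is taken to vary as the other group does, and those with library totals. Further alternatives were no filter, a mean of at least 50 and voom. No label says that libraries came from separate cultures, so p-values may reflect technical spread. Symbols matched 19707 of 19840 identifiers. Exon lengths are from GENCODE M21 and promoters from RefSeq GRCm38.p6, other builds than the authors'. Named were the 10 genes, from each list the called genes or else the smallest p, the sensors Ern1, Eif2ak3 and Atf6, with Atf4, Ddit3, Hyou1 and Lncenc1, and the 3 genes most like the set. Trib3, Hnrnpa3, Canx and Rcn1 were chosen after their values were seen. The 10 genes and all lists were chosen with earlier results of these data known.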

Additional observations from a re-analysis of the deposited data

How the results depend on the processing

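The count of 0 called genes among the 10 was the same with no filter on the mean, a mean of at least 50, limma voom, library totals, the refit with all 4 libraries (added after seeing the data) and without each library in turn, and 0 of 90 combinations of gene and setting passed. Herpud1 had a log2 fold change from 0.69 to 1.34 without 1 library, 0.96 with library totals and 1.03 with voom. Its direction could not change without 1 library, because its groups do not overlap. Nor could it change with another filter on the mean, which leaves the deposited fold change as it is. Its constant direction is therefore no further evidence of a difference. In fits without 1 library 5 genes changed sign around 0, all far from a call: Hspa5 ranged from -0.16 to 0.03, Xbp1 from -0.14 to 0.45, Dnajb9 from -0.29 to 0.49, Pdia4 from -0.31 to 0.16 and Manf from -0.09 to 0.14. So did Creb3, from -0.98 to 0.03, Ern1, from -0.06 to 0.17, Eif2ak3, from -0.22 to 0.03, Ddit3, from -0.88 to 0.17, and Hyou1, from -0.13 to 0.51. Over all genes 215 were called, against 6 with voom and 49 to 197 without 1 library (49 without L2, 55 without H1 and 78 without H2). The ATF4 list held 6 calls, against 0 with voom and 2 to 6 without 1 library. The heat shock list held 3, against 0 with voom and 0 without any 1 library. The list of ER folding and redox genes held 0, and 0 to 1 without 1 library, the 1 being Rcn1 without L1. The refits without 1 library have fewer samples, and the cause of the lower voom count was not tested. Library totals moved the median log2 fold change by -0.03. All alternatives but library totals made fewer than 215 calls over all genes. The constant 0 among the 10 is therefore little further evidence on their levels.

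No paired analysis was possible because the deposited columns carry no replicate numbers. Of the 10 genes Dnajb9 had the fewest reads, 90 to 379 a library, and the largest standard error, 0.43.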
